A study of Mus musculus with 9 samples.

Results

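Ligands of the tumour necrosis factor (TNF) superfamily were followed across 3 populations of mouse CD4+ T cells. The set consists of 10 genes, Tnf, Lta, Ltb, Tnfsf4, Tnfsf8, Tnfsf10, Tnfsf11, Tnfsf14, Fasl and Cd40lg, each chosen by its gene symbol, which was matched through the RefSeq accession of the array probe. All 10 were found, with 1 probe each among the 39429 probes of the array. The 10 probes made up 28 of 43020 spots that are not controls. The 10 genes are a small part of the 19133 genes that entered the tests. Each of them was well above background on all 9 arrays, so that the filter on dim probes removed none, and none of their spots was saturated.

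The cells were taken from BALB/c mice, from lymph nodes and spleen, and were enriched for CD4 on magnetic columns. All of them, the naive cells too, had received PMA at 10 ng/ml and ionomycin at 500 ng/ml for 3 h, a pair of drugs that act below the T cell receptor through protein kinase C and calcium. Secreted cytokine was then captured on the cell surface, and CD3+CD4+ cells were sorted. Th17 cells were CD45RB low, interferon gamma negative and IL-17A positive; Th1 cells were CD45RB low, interferon gamma positive and IL-17A negative; naive cells were CD45RB high. Each population had 3 samples, and 0.5 µg of RNA of each was hybridised to a 1-colour array. The labels do not tie the samples to animals or sorts, so the p-values reflect the spread between samples alone, and that spread may be technical. Th17 and Th1 cells were set apart from naive cells both by CD45RB and by a captured cytokine, and the design cannot tell these apart. In a sorted population, fewer cells making a transcript and less of it per cell cannot be told apart either.

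TNF superfamily ligands are mostly membrane proteins that act as trimers on receptors of neighbouring cells, and some are cut from the surface by proteases. Receptors with a death domain can start apoptosis, and others recruit TRAF adaptors that lead to NF-kappaB and kinase pathways. Activated helper T cells are a main source of several of these ligands, through which they instruct B cells, dendritic cells, stromal cells and osteoclast precursors.

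Levels are log2 intensities minus the 75th percentile of the array, so that 0 is the 75th percentile. A level of one gene was not set against that of another, since probes differ in brightness. A change is a log2 fold change from limma over all 9 arrays, given ± SE, and was called at an adjusted p under 0.05 (two-sided, Benjamini-Hochberg over the 19133 genes). The share of probes well above background lay between 53.4% and 58.3%. The gated cytokines followed the labels, with Ifng at 9.12 ± 0.18 in Th1 cells against 1.42 ± 0.17 in naive cells and Il17a at 9.24 ± 0.24 in Th17 cells against -3.03 ± 2.43 in naive cells (SD, n = 3 each). Cd4 and Cd3e were above background on all 9 arrays, as were the other T cell markers except Cd247, above on 2 of 3 Th17 arrays. Their levels differed between the populations. Cd3e was called higher in Th1 (2.20 ± 0.15, adjusted p = 1.24e-05) and Th17 against naive cells (1.63 ± 0.15, adjusted p = 5.55e-05). It was lower in Th17 than in Th1 cells (-0.57 ± 0.15, adjusted p = 0.0392). Cd4 was called higher in Th1 against naive cells (0.88 ± 0.14, adjusted p = 0.00109) and lower in Th17 than in Th1 cells (-0.51 ± 0.14, adjusted p = 0.0446). Cd4 did not pass in Th17 against naive cells (0.37 ± 0.14, adjusted p = 0.0567).

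Against naive cells, Tnfsf8, Tnfsf10, Tnfsf11 and Tnfsf14 were called higher in both cytokine-secreting populations, Tnf and Cd40lg were called higher in Th17 cells, and Tnfsf4 and Fasl were called higher in Th1 and lower in Th17 cells. In Th17 against naive cells 8 of 10 ligands were called, 6 higher and 2 lower, where 54.1% of all genes tested were called, 24.4% higher and 29.7% lower. The median change of the 10 was 0.84, against -0.09 over all genes, and the median absolute change was 1.68, against 0.51 over all genes. In Th1 against naive cells 7 of 10 were called, 6 higher and 1 lower, beside 53.9% of all genes, 23.5% higher and 30.4% lower. There the median change was 1.02, against -0.09 over all genes, and the median absolute change 1.31, against 0.50. Against a background this large, the count of ligands called says little. The ligands were chosen with earlier results of these data known. Their counts and medians beside all genes, here and in Th17 against Th1 cells, therefore describe them and do not test them as a set. The arrays of both populations did not overlap for 10 ligands in Th17 against naive cells, 6 higher and 4 lower, beside 28.4% and 34.9% of all genes, and for 7 in Th1 against naive cells, 6 higher and 1 lower, beside 28.1% and 37.3%. With arrays scaled instead to the probes detected on each of the 9, the median over all genes in Th1 against naive cells moved to 0.05, and 55% of the genes called were higher, against 43.6% as reported. The same 7 ligands were called there, in the same directions. Both comparisons use the same 3 naive arrays.

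Between the cytokine-secreting populations the ligands divided. In Th17 against Th1 cells 7 of 10 were called, 4 higher and 3 lower, where 15.8% of all genes were called, 8.26% higher and 7.51% lower. The median absolute change was 0.98 against 0.24 over all genes. Tnf, Tnfsf8, Tnfsf14 and Cd40lg were higher in Th17 cells, and Tnfsf4, Tnfsf10 and Fasl were lower. The arrays of both populations did not overlap for 8 ligands, 5 higher and 3 lower, beside 18.8% and 16.6% of all genes. The plot of levels by array shows each ligand on its own axis.

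**Figure D1:**
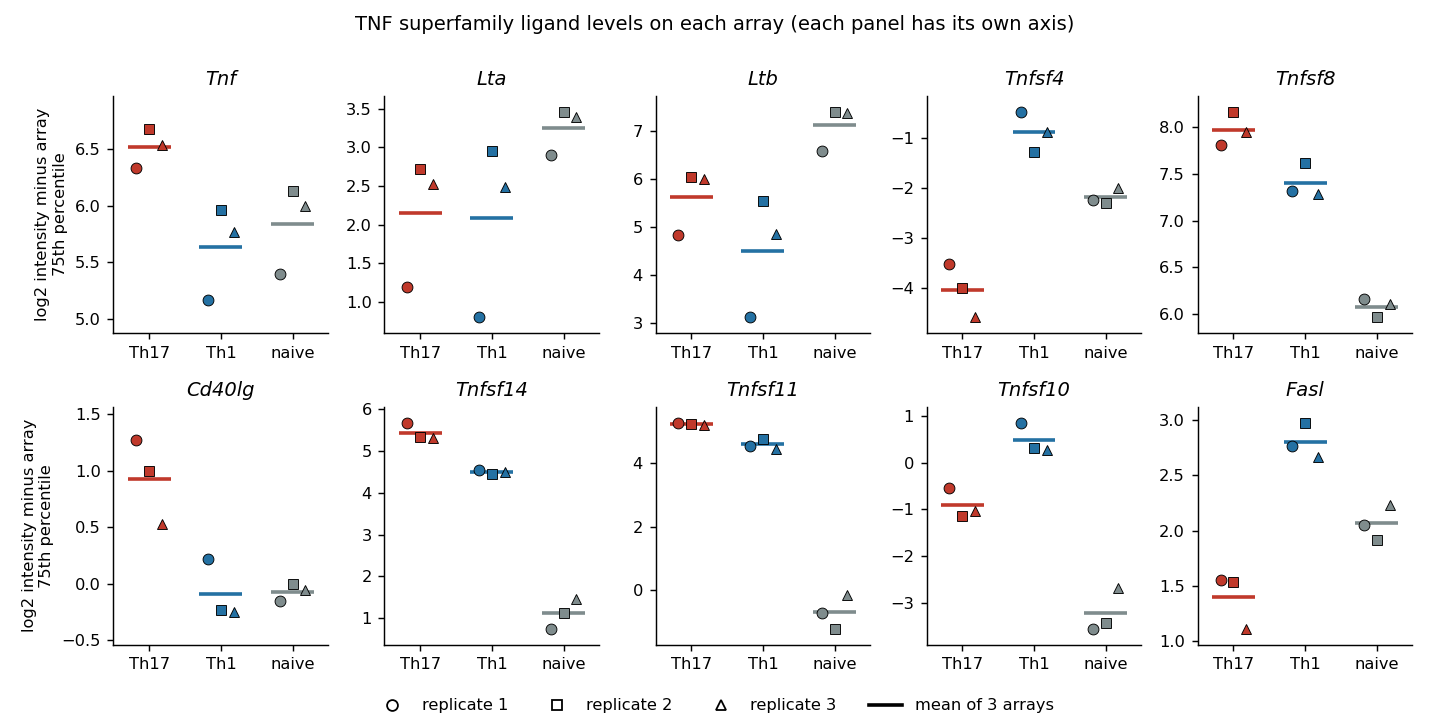
Levels of the 10 ligands on each array, as log2 intensity minus the 75th percentile of the array, for Th17, Th1 and naive cells (each symbol is 1 array, its shape the replicate number, and the bar the mean of 3). Tnfsf11 and Tnfsf14 lie far above the naive arrays in both cytokine-secreting populations, while Tnfsf4 and Fasl are highest in Th1 and lowest in Th17 cells.

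**Figure D2:**
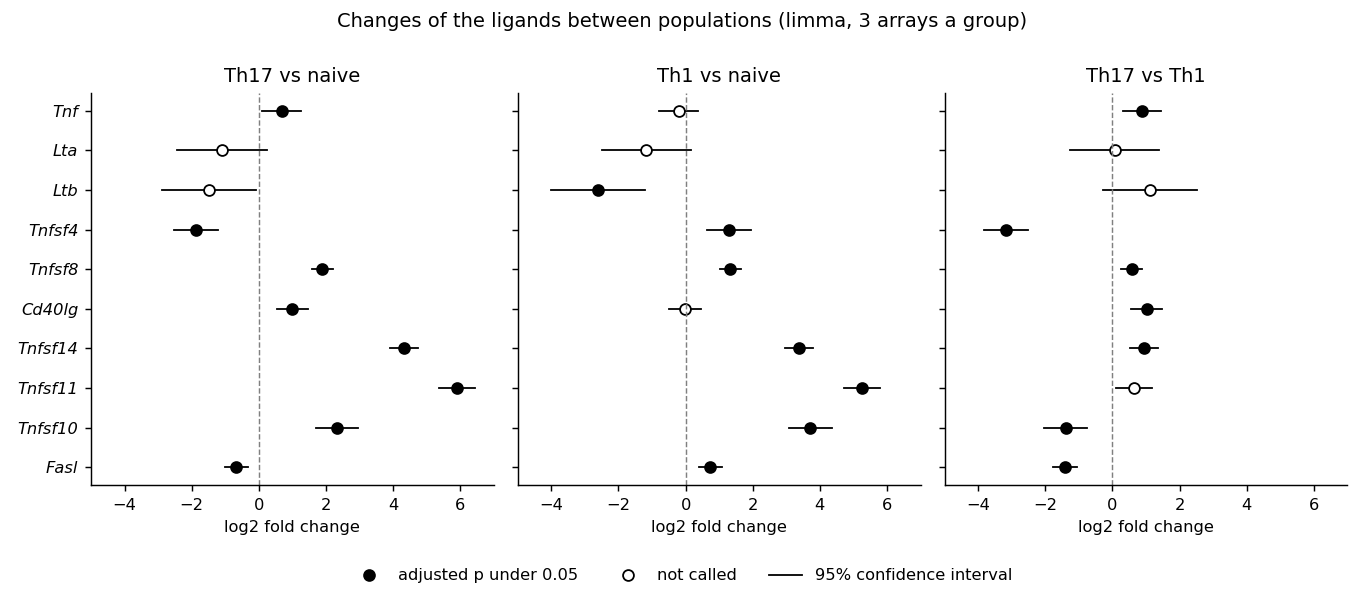
Log2 fold changes of the 10 ligands in the 3 comparisons, with 95% confidence intervals as lines and filled points for an adjusted p under 0.05. The intervals of Lta and Ltb are the widest, and that of Lta spans 0 in each comparison.

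Tnfsf11 encodes RANKL, which binds RANK and drives the formation of osteoclasts and of lymph nodes. It stood at 5.25, 5.21 and 5.20 on the Th17 arrays, at 4.53, 4.74 and 4.44 on the Th1 arrays and at -0.69, -1.20 and -0.13 on the naive arrays. Every Th17 array lay above every Th1 array, and both populations lay far above the naive arrays. The change was 5.89 ± 0.24 in Th17 against naive cells (59.4-fold, adjusted p = 9.74e-07) and 5.25 ± 0.24 in Th1 against naive cells (38-fold, adjusted p = 1.34e-06), the largest changes of the 10 ligands in both comparisons. Between Th17 and Th1 cells the difference of 0.65 ± 0.24 did not pass (adjusted p = 0.104, 95% confidence interval 0.11 to 1.19). It passed when the 2 groups were fitted without the naive arrays (adjusted p = 0.0198) and without naive replicate 2 or 3 (adjusted p = 0.0379 and 0.0331).

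Tnfsf14 encodes LIGHT, a ligand of HVEM and of the lymphotoxin beta receptor that costimulates T cells. Its level was 5.68, 5.34 and 5.32 on the Th17 arrays, 4.55, 4.45 and 4.49 on the Th1 arrays and 0.75, 1.13 and 1.47 on the naive arrays. The 3 populations did not overlap, with Th17 cells highest and naive cells lowest. Changes were 4.33 ± 0.18 in Th17 against naive cells (20.1-fold, adjusted p = 1.25e-06), 3.38 ± 0.18 in Th1 against naive cells (10.4-fold, adjusted p = 3.49e-06) and 0.95 ± 0.18 in Th17 against Th1 cells (adjusted p = 0.0103).

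The start-site flanks of these ligands are shown because Tnfsf11 and Tnfsf14 had the largest rises in Th17 cells. RefSeq tables (GRCm38.p6) held the 250 bases before the annotated start for 8 of the 10 ligands, all but Tnfsf4 and Cd40lg. Each was searched on both strands for the TATA box letters TATAAA, the NFAT core GGAAA, the AP-1 letters TGANTCA, the RUNX letters TGTGGT and the NF-kappaB consensus. Of 32851 windows of this length, 12.4% held TATAAA, 55.6% GGAAA, 6.75% TGANTCA, 14.0% TGTGGT and 3.9% the NF-kappaB consensus. The window of Tnfsf11 is chr14:78308044-78308293 and that of Tnfsf14 chr17:57194182-57194431, both on the minus strand, and capitals mark the matches, on either strand.
Tnfsf11: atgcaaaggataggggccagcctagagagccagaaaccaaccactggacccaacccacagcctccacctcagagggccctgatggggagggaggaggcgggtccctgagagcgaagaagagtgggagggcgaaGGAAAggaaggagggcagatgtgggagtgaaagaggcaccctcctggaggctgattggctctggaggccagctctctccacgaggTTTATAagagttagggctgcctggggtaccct
Tnfsf14: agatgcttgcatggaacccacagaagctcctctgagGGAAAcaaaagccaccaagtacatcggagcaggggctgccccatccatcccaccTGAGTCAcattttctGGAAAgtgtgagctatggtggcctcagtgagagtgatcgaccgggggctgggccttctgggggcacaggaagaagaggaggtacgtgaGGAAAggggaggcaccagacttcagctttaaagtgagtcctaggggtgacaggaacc
In the Tnfsf11 window TATAAA lay on the opposite strand 32 bases upstream of the start, counted from the first base of the match, and 1 GGAAA lay 117 bases upstream. The Tnfsf14 window held GGAAA 3 times, at 214, 145 and 57 bases upstream, and TGANTCA once, at 160 bases. A match describes letters and is not a measured binding site, and the arrays do not bear on these windows directly.

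Tnfsf8, the gene of CD30 ligand, stood at 7.81, 8.17 and 7.95 on the Th17 arrays, at 7.31, 7.61 and 7.29 on the Th1 arrays and at 6.17, 5.96 and 6.11 on the naive arrays. The populations followed the same order as for Tnfsf14, without overlap. It rose by 1.89 ± 0.13 in Th17 against naive cells (3.72-fold, adjusted p = 1.33e-05) and by 1.33 ± 0.13 in Th1 against naive cells (2.51-fold, adjusted p = 9.35e-05). The difference of 0.57 ± 0.13 between Th17 and Th1 cells (adjusted p = 0.0242) was lost when Th1 replicate 1 or 3, or Th17 replicate 2 or 3, was left out (adjusted p of 0.0504 to 0.0766). It was also lost under quantile normalization (0.45, adjusted p = 0.0673).

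Cd40lg, the ligand through which helper T cells activate B cells and dendritic cells by way of CD40, stood at 1.27, 0.99 and 0.52 on the Th17 arrays, at 0.22, -0.23 and -0.24 on the Th1 arrays and at -0.15, 0.00 and -0.06 on the naive arrays. All 3 Th17 arrays lay above the other 6, and the Th1 and naive arrays overlapped. Its change was 0.999 ± 0.20 in Th17 against naive cells (adjusted p = 0.00341) and 1.02 ± 0.20 in Th17 against Th1 cells (adjusted p = 0.0117). In Th1 against naive cells it was -0.02 ± 0.20 (adjusted p = 0.945), with a 95% confidence interval of -0.48 to 0.45.

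Tnfsf4, the gene of OX40 ligand, which costimulates T cells through OX40, moved in opposite directions. It stood at -3.53, -4.01 and -4.59 on the Th17 arrays, at -0.47, -1.27 and -0.88 on the Th1 arrays and at -2.23, -2.31 and -1.99 on the naive arrays. Each population kept to a range of its own. It fell by 1.87 in Th17 against naive cells (SE 0.29, adjusted p = 0.000785), rose by 1.30 ± 0.29 in Th1 against naive cells (adjusted p = 0.00514) and was 9.02-fold lower in Th17 than in Th1 cells (-3.17 ± 0.29, adjusted p = 0.000222). After normexp background correction without spots of outlying local background, which adds an offset of 50 to each signal and so compresses dim probes, the 3 changes were -0.73 (adjusted p = 0.00471), 0.95 (adjusted p = 0.00107) and -1.68 (adjusted p = 5.13e-05).

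Fasl and Tnfsf10 encode ligands of death receptors. Fasl, which kills cells through Fas and limits T cell responses, stood at 1.55, 1.53 and 1.11 on the Th17 arrays, at 2.76, 2.97 and 2.67 on the Th1 arrays and at 2.05, 1.92 and 2.23 on the naive arrays. As for Tnfsf4, the Th1 arrays were the highest and the Th17 arrays the lowest, with no overlap. It fell by 0.67 in Th17 against naive cells (SE 0.15, adjusted p = 0.00633), rose by 0.74 ± 0.15 in Th1 against naive cells (adjusted p = 0.00396) and was 2.65-fold lower in Th17 than in Th1 cells (-1.40 ± 0.15, adjusted p = 0.00062).

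Tnfsf10, the gene of TRAIL, stood at -0.54, -1.15 and -1.03 on the Th17 arrays, at 0.86, 0.32 and 0.27 on the Th1 arrays and at -3.56, -3.43 and -2.69 on the naive arrays. Unlike Fasl, it was above the naive arrays in both populations, and every Th1 array lay above every Th17 array. It rose by 2.32 ± 0.28 in Th17 against naive cells (5-fold, adjusted p = 0.000201) and by 3.71 ± 0.28 in Th1 against naive cells (13.1-fold, adjusted p = 1.75e-05). Between Th17 and Th1 cells it was at -1.39 ± 0.28 (adjusted p = 0.0115), and at -1.14 on the 4 arrays of slide 2, where it missed the threshold (adjusted p = 0.0684).

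Tnf, Lta and Ltb lie next to each other within the major histocompatibility complex on chromosome 17. TNF is a main inflammatory cytokine, lymphotoxin alpha binds the TNF receptors as a secreted trimer, and together with lymphotoxin beta it forms a membrane complex that acts on the lymphotoxin beta receptor in lymphoid organs. Their start-site flanks are shown for comparison within this cluster. The window of Tnf is chr17:35202008-35202257 and that of Lta chr17:35205352-35205601, both on the minus strand, and that of Ltb is chr17:35194257-35194506 on the plus strand.
Tnf: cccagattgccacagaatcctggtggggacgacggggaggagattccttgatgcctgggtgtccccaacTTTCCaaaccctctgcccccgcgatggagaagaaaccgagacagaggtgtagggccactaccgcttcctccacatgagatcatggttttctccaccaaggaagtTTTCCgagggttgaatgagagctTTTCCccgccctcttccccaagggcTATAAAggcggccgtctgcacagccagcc
Lta: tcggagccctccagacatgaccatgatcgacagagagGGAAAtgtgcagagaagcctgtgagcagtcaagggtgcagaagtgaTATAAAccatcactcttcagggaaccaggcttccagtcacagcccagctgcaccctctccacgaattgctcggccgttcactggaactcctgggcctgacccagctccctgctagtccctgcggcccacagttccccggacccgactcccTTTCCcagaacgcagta
Ltb: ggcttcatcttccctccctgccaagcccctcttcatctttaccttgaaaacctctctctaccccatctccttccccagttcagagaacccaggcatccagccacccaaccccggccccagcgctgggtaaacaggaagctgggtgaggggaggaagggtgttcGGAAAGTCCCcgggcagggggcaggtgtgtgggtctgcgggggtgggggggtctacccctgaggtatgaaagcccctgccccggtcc
Capitals again mark matches on either strand. The Tnf window held TATAAA 29 bases upstream of the start and GGAAA 3 times on the opposite strand, at 181, 77 and 54 bases. The Lta window held TATAAA at 167 bases and GGAAA at 213 and 17 bases. In the Ltb window 1 GGAAA overlapped the only NF-kappaB consensus found in the 8 windows, 87 bases upstream. TGTGGT was found in none of the 8 windows. Tnfsf8 and Tnfsf10 held GGAAA once each and Fasl 2 times, with no match of the other motifs.

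Ltb was lower in both cytokine-secreting populations. It stood at 4.82, 6.04 and 5.998 on the Th17 arrays, at 3.11, 5.54 and 4.85 on the Th1 arrays and at 6.58, 7.40 and 7.36 on the naive arrays. Every naive array lay above the other 6, while Th17 and Th1 arrays overlapped. Relative to naive cells it was 6.12-fold lower in Th1 cells (-2.61 ± 0.61, adjusted p = 0.00686), a change of -1.92 without Th1 replicate 1 (adjusted p = 0.00932), and -1.49 ± 0.61 in Th17 against naive cells did not pass (adjusted p = 0.068). Without Th1 replicate 1, which enters that comparison only through the shared spread, the adjusted p was 0.0152, and without Th1 replicate 2 it was 0.0452. The difference between Th17 and Th1 cells was 1.12 ± 0.61 (adjusted p = 0.254).

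Lta stood at 1.20, 2.72 and 2.53 on the Th17 arrays, at 0.80, 2.95 and 2.49 on the Th1 arrays and at 2.90, 3.46 and 3.39 on the naive arrays. All Th17 arrays lay below the naive ones, and 1 Th1 array reached into their range. Changes were -1.10 ± 0.58 in Th17 against naive cells (adjusted p = 0.142), -1.17 ± 0.58 in Th1 against naive cells (adjusted p = 0.124) and 0.06 ± 0.58 in Th17 against Th1 cells (adjusted p = 0.954), none of them called. Without Th1 replicate 1 the change in Th17 against naive cells passed (adjusted p = 0.0499). In Th17 against Th1 cells the 95% confidence interval, -1.27 to 1.40, leaves room for differences of more than 2-fold either way.

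Tnf stood at 6.34, 6.68 and 6.54 on the Th17 arrays, at 5.17, 5.96 and 5.77 on the Th1 arrays and at 5.40, 6.13 and 5.998 on the naive arrays. The Th17 arrays were the highest, by a small gap, and the Th1 and naive arrays overlapped. Its change was 0.67 ± 0.25 in Th17 against naive cells (adjusted p = 0.049) and 0.89 ± 0.25 in Th17 against Th1 cells (adjusted p = 0.0472), and -0.21 ± 0.25 in Th1 against naive cells did not pass (adjusted p = 0.509). Both calls lay close to the threshold, and neither was made on the authors' deposited values (adjusted p = 0.0554 against naive cells and 0.0508 against Th1 cells). Leaving out any 1 Th17 array ended each (adjusted p between 0.0607 and 0.129). The rise over naive cells was also lost when naive replicate 1 or 3, or Th1 replicate 3, was left out (adjusted p of 0.0651 to 0.148). The rise over Th1 cells was lost without Th1 replicate 1 or 3 and without naive replicate 2 or 3 (adjusted p of 0.0541 to 0.115).

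The spread of Tnf, Lta and Ltb had a shape in common. In each of the 3 populations the array numbered 1 was the lowest of its group for all 3 genes. None of the other 7 ligands showed this pattern. Of the 19055 genes with a value on every array, 6.02% showed it for number 1. For number 2 the share was 2.79%, and for number 3 it was 6.91%. The gap between array 1 and the mean of the other two was largest for Ltb and Lta in Th1 cells. For Ltb it was -1.20 in Th17, -2.09 in Th1 and -0.80 in naive cells, for Lta -1.42, -1.92 and -0.53 in the same order, and for Tnf -0.27, -0.69 and -0.67. Over the 9 arrays the deviations from the population means had a Pearson r of 0.99 between Lta and Ltb, of 0.90 between Tnf and Ltb and of 0.85 between Tnf and Lta, a description over arrays that share their scaling and their slides. Tnf and Lta had 10 spots each on every array, whose SD within an array was between 0.03 and 0.05 on the log2 scale, a spread within 1 hybridisation that leaves out the variation between samples. The labels do not say what samples of the same number share. Across all genes, deviations correlated at -0.007 to 0.175 between arrays of the same number, over 0.1 in 3 of 9 pairs. Between different numbers they correlated at -0.197 to 0.065, over 0.1 in 0 of 18 pairs. A partial pairing is therefore not settled. With the replicate number as a block, Lta was called lower in both populations against naive cells. Ltb was then called in all 3 comparisons. Without the 3 arrays numbered 1, a check added after seeing the data, Lta was called lower in Th17 against naive cells (-0.80, adjusted p = 0.0224) and in Th1 against naive cells (-0.70, adjusted p = 0.0331), and Ltb in Th17 against naive cells (-1.36, adjusted p = 0.00897).

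**Figure D3:**
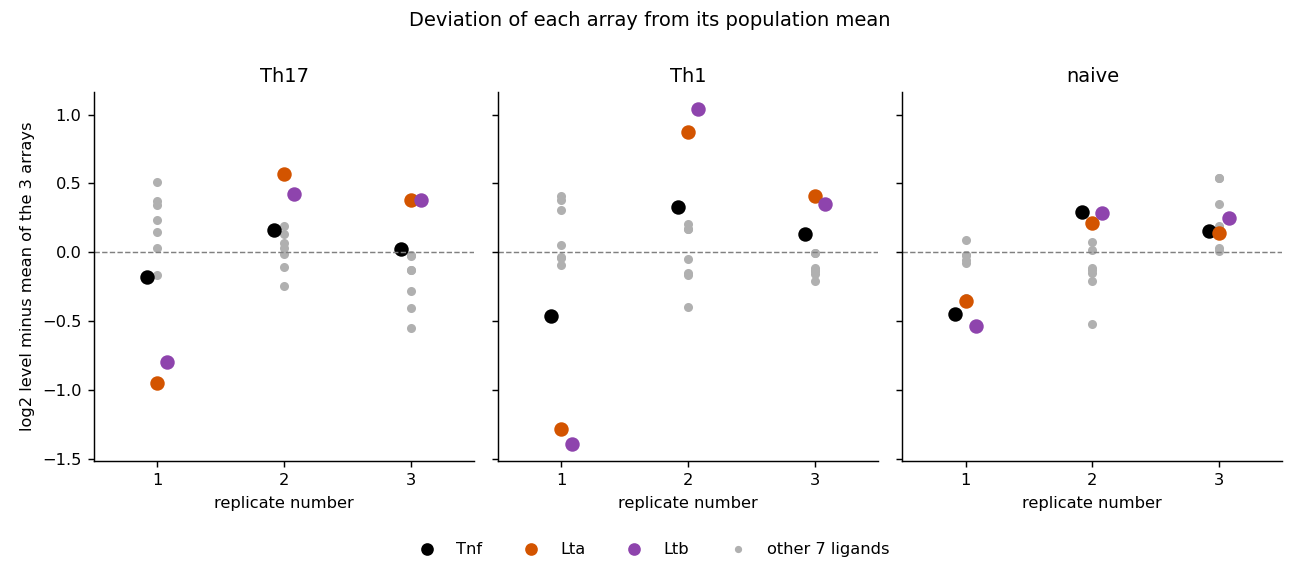
Deviation of each array from the mean of its population (log2), by replicate number, for Tnf, Lta and Ltb in colour or black and the other 7 ligands in grey, in Th17, Th1 and naive cells. The array numbered 1 is the lowest for Tnf, Lta and Ltb in each population, with Ltb furthest down in Th1 cells.

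The slides carried the populations unevenly. Slide 1 held the 3 naive arrays and Th1 replicate 1, slide 2 held Th17 replicates 1 and 2 with Th1 replicates 2 and 3, and slide 3 held Th17 replicate 3, so that no slide held Th17 and naive cells together. Within slide 2, where each population has 2 arrays, 4 of the 7 ligands called in Th17 against Th1 cells were called again, Cd40lg at 1.37 (adjusted p = 0.0166), Tnfsf14 at 1.04 (adjusted p = 0.0384), Tnfsf4 at -2.70 (adjusted p = 0.0114) and Fasl at -1.28 (adjusted p = 0.0208). Tnf at 0.64 (adjusted p = 0.118) and Tnfsf8 at 0.54 (adjusted p = 0.201) missed the threshold there. Within slide 1, where 1 Th1 array is set against 3 naive arrays, the spread of Th1 cells cannot be measured, and the changes are given as values: 5.21 for Tnfsf11, 4.09 for Tnfsf10, 3.43 for Tnfsf14, 1.71 for Tnfsf4, 1.23 for Tnfsf8, 0.70 for Fasl and -4.01 for Ltb. That Th1 array is the one numbered 1, the lowest of the Th1 arrays for Ltb and Lta, and Lta was at -2.45 there.

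With slide as a block, Th17 and naive cells can be linked only through the Th1 arrays. Of these, only Th1 replicate 1 shares a slide with naive cells, so each such change rests on that array. In that fit Tnfsf11 (5.84), Tnfsf14 (4.47), Tnfsf10 (2.95), Tnfsf8 (1.77) and Cd40lg (1.66) were still called higher in Th17 against naive cells. Tnfsf4 at -0.99 (adjusted p = 0.0753) and Fasl at -0.58 (adjusted p = 0.118) missed the threshold, and Tnf turned to -0.03 (adjusted p = 0.964). Lta at -3.21 (adjusted p = 0.0243) and Ltb at -3.77 (adjusted p = 0.0142) were called lower. Th1 replicate 1 was the lowest Th1 array for both genes. Lta stood at 0.80 on it, against 2.95 and 2.49 on Th1 replicates 2 and 3, and Ltb at 3.11, against 5.54 and 4.85. The size of both falls in that fit therefore depends on this array. The plot of changes under other processing shows how far each ligand moved.

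**Figure D4:**
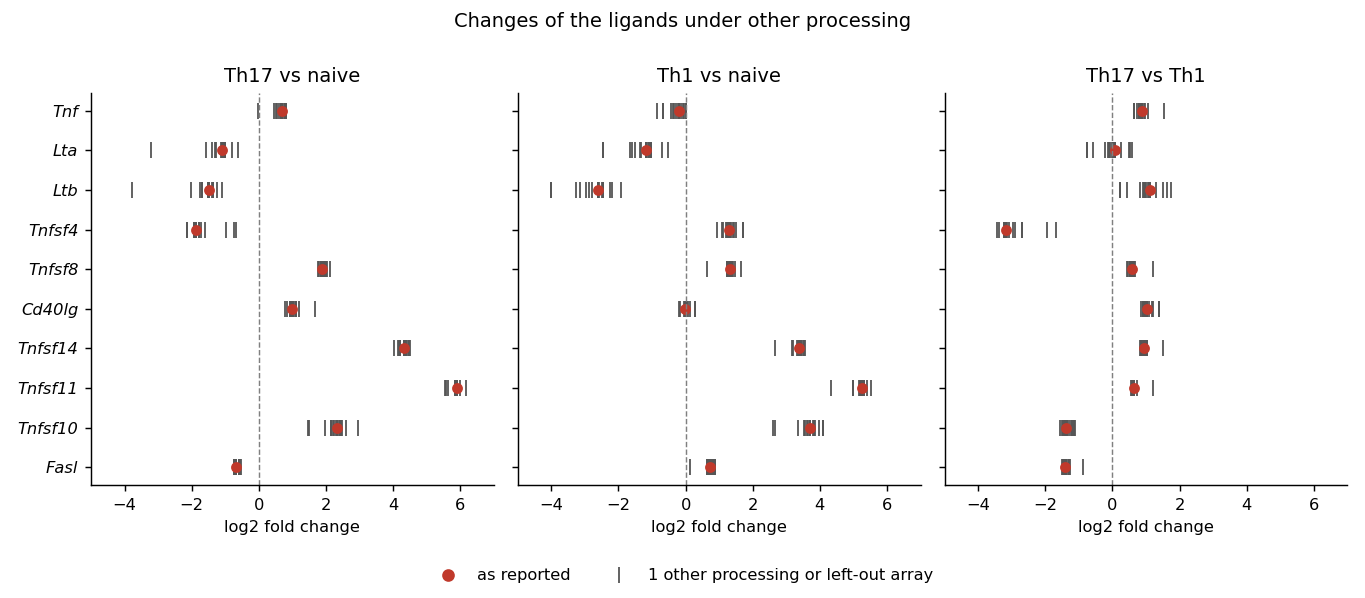
Log2 fold changes of the 10 ligands in the 3 comparisons as reported (red points) and under each other processing or with arrays left out (grey ticks, 24 fits for Th17 vs Th1 and Th1 vs naive and 23 for Th17 vs naive). Tnfsf8, Tnfsf11 and Tnfsf14 stay well to the right of 0 against naive cells, whereas Lta spans 0 in Th17 vs Th1.

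Other genes of the pathway came from lists chosen beside the ligands. Of 8 further TNF superfamily ligands 5 were bright enough to be tested, and 2 of them were called higher and 1 lower in Th17 against naive cells, 3 higher and 1 lower in Th1 against naive cells, and 0 in Th17 against Th1 cells, beside 54.1%, 53.9% and 15.8% of all genes. Tnfsf9, the 4-1BB ligand, rose by 3.28 ± 0.16 in Th17 (adjusted p = 2.44e-06) and by 2.88 ± 0.16 in Th1 against naive cells (adjusted p = 4.3e-06). Cd70, the ligand of CD27, was not well above background on any naive array and was at least 6.88-fold higher in Th17 cells (adjusted p = 7.6e-05) and at least 18.7-fold higher in Th1 cells (adjusted p = 1.93e-05). Such a bound sets the mean of the brighter group against the lowest signal among probes well above background on the naive arrays. Between Th17 and Th1 cells Cd70 was at -1.44 ± 0.45 (adjusted p = 0.0674), called without Th17 replicate 3 (-1.91, adjusted p = 0.0178). Tnfsf12, the gene of TWEAK, was lower by small amounts in Th17 (-0.60 ± 0.15, adjusted p = 0.00811) and Th1 cells (-0.45 ± 0.15, adjusted p = 0.0283) against naive cells, and both calls ended with slide as a fixed block (adjusted p = 0.322 and 0.201). Tnfsf13b, the gene of the B cell survival factor BAFF, rose by 1.45 ± 0.29 in Th1 against naive cells (adjusted p = 0.00303), with 1 of 3 naive arrays above background, and the call ended under normexp without spots of outlying local background (0.24, adjusted p = 0.111).

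Among the receptors of the 10 ligands, 10 of 13 were tested, beside shares of all genes called of 54.1% in Th17 against naive, 53.9% in Th1 against naive and 15.8% in Th17 against Th1 cells. In Th17 against naive cells 1 was called higher and 2 lower, in Th1 against naive cells 1 higher and 5 lower, and in Th17 against Th1 cells 1 higher and 3 lower. Tnfrsf4, which encodes OX40, the receptor of the Tnfsf4 product, rose by 2.52 ± 0.11 in Th17 (adjusted p = 1.37e-06) and by 2.66 ± 0.11 in Th1 against naive cells (adjusted p = 8.46e-07). Fas, the receptor of Fas ligand, fell by 1.79 in Th17 (SE 0.14, adjusted p = 1.94e-05) and by 0.97 in Th1 against naive cells (SE 0.14, adjusted p = 0.000553), and was lower in Th17 than in Th1 cells (-0.82 ± 0.14, adjusted p = 0.00551). Within slide 2 that last difference was of the same size and missed the threshold (-0.82, adjusted p = 0.097). Tnfrsf10b, the TRAIL receptor that carries a death domain, fell by 0.87 in Th1 against naive cells (SE 0.16, adjusted p = 0.00237) and was higher in Th17 than in Th1 cells (0.82 ± 0.16, adjusted p = 0.0117), a call not made within slide 2 (0.67, adjusted p = 0.179). Tnfrsf23, a decoy receptor of TRAIL in the mouse, fell by 1.27 in Th17 against naive cells (SE 0.15, adjusted p = 0.000203). Tnfrsf1a, the main TNF receptor with a death domain, fell by 0.94 in Th1 against naive cells (SE 0.16, adjusted p = 0.00138). Tnfrsf22, another mouse decoy receptor of TRAIL, was lower in Th17 than in Th1 cells (-0.48 ± 0.13, adjusted p = 0.0422), a call lost under most other settings, without any 1 Th1 array among them (adjusted p of 0.0884 to 0.107). The list does not move as a whole in one direction, with medians of -0.18, -0.30 and -0.01 in Th17 against naive, Th1 against naive and Th17 against Th1 cells, beside -0.09, -0.09 and 0.01 over all genes.

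All 23 adaptors and kinases below these receptors were tested, and the shares of all genes called, 54.1%, 53.9% and 15.8%, stand beside their counts in the order given. In Th17 against naive cells 7 were called higher and 10 lower, in Th1 against naive cells 7 higher and 11 lower, and in Th17 against Th1 cells 0 higher and 1 lower. Tnfaip3, the gene of A20, a brake on NF-kappaB, fell by 1.45 in Th17 (SE 0.13, adjusted p = 5.11e-05) and by 1.19 in Th1 against naive cells (SE 0.13, adjusted p = 0.000156). Casp8, the apical caspase of death receptors, fell by 1.28 in Th17 (SE 0.15, adjusted p = 0.000166) and by 1.21 in Th1 against naive cells (SE 0.15, adjusted p = 0.000236). Ikbkg, the gene of NEMO, the regulatory subunit of the IkappaB kinase, rose by 1.74 ± 0.20 in Th17 (adjusted p = 0.000161) and by 1.57 ± 0.20 in Th1 against naive cells (adjusted p = 0.000308). Rnf31, the gene of HOIP, which builds linear ubiquitin chains at TNF receptors, fell by 0.76 in Th17 (SE 0.10, adjusted p = 0.000348) and by 0.58 in Th1 against naive cells (SE 0.10, adjusted p = 0.00148). Cflar, the gene of the caspase-8 inhibitor c-FLIP, fell by 0.71 in Th1 against naive cells (SE 0.09, adjusted p = 0.000289). It also fell by 0.48 in Th17 against naive cells (SE 0.09, adjusted p = 0.00221), a call that ended with slide as a fixed block (adjusted p = 0.102). The only call between Th17 and Th1 cells was Birc2, an inhibitor of apoptosis protein, at -0.46 ± 0.11 (adjusted p = 0.0286), which was lost without any 1 Th1 array, without Th17 replicate 2 or 3 and without naive replicate 3 (adjusted p of 0.0516 to 0.0817).

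Of 12 genes for the decay of ligand mRNAs and the shedding of ligands, 6 were called higher and 2 lower in Th17 against naive cells, 5 higher and 3 lower in Th1 against naive cells, and 3 higher and 2 lower in Th17 against Th1 cells, beside 54.1%, 53.9% and 15.8% of all genes. Adam17, which cuts TNF from the cell surface, rose by 1.26 ± 0.15 in Th17 against naive cells (adjusted p = 0.000224) and by 0.85 ± 0.15 in Th17 against Th1 cells (adjusted p = 0.00733). Adam10, which cuts Fas ligand, rose by 1.88 ± 0.19 in Th1 (adjusted p = 9.35e-05) and by 1.40 ± 0.19 in Th17 against naive cells (adjusted p = 0.000428). Sppl2a, an intramembrane protease of TNF and Fas ligand, rose by 0.91 ± 0.10 in Th17 (adjusted p = 0.000103) and by 0.75 ± 0.10 in Th1 against naive cells (adjusted p = 0.000322). Zfp36, the gene of tristetraprolin, which destabilises Tnf mRNA, fell by 1.96 in Th17 against naive cells (SE 0.22, adjusted p = 0.000131) and was lower in Th17 than in Th1 cells (-1.24 ± 0.22, adjusted p = 0.00663), a call that ended without the 3 arrays numbered 1 (-1.14, adjusted p = 0.0707). The Roquin genes, whose products bind Tnf mRNA, differed in direction. Rc3h2 rose by 0.94 ± 0.11 in Th17 (adjusted p = 0.000149) and by 0.64 ± 0.11 in Th1 against naive cells (adjusted p = 0.00127), and Rc3h1 fell by 0.69 in Th1 against naive cells (SE 0.12, adjusted p = 0.00139). Rhbdf2, a partner of ADAM17, was higher in Th17 than in Th1 cells (0.84 ± 0.19, adjusted p = 0.0182), a call lost without Th1 replicate 2 or 3 or Th17 replicate 2 (adjusted p of 0.0528 to 0.0645). Zfp36l2, a relative of Zfp36, was lower in Th17 than in Th1 cells (-0.76 ± 0.20, adjusted p = 0.0389), a call lost when any of 7 of the 9 arrays was left out (adjusted p of 0.0564 to 0.102).

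Of 14 transcription factors that T cell activation engages, 3 were called higher and 4 lower in Th17 against naive cells, 4 higher and 2 lower in Th1 against naive cells, and 2 higher and 5 lower in Th17 against Th1 cells, beside 54.1%, 53.9% and 15.8% of all genes. Fos, an AP-1 subunit, fell by 2.36 in Th17 (SE 0.32, adjusted p = 0.000396) and by 1.38 in Th1 against naive cells (SE 0.32, adjusted p = 0.00661), and the second of these calls ended with slide as a fixed block (-1.36, adjusted p = 0.0768). Jun, its partner, was higher in Th17 than in Th1 cells (1.47 ± 0.19, adjusted p = 0.00154), and Egr1 was lower (-1.29 ± 0.17, adjusted p = 0.0019). Nfkb1, which encodes an NF-kappaB subunit, rose by 0.88 ± 0.10 in Th17 against naive cells (adjusted p = 0.000172). Egr3 fell by 1.31 in Th17 against naive cells (SE 0.18, adjusted p = 0.000418) and was lower in Th17 than in Th1 cells (-0.94 ± 0.18, adjusted p = 0.00948), where the second call was not made within slide 2 (-0.81, adjusted p = 0.155). With slide as a fixed block the first call ended too (adjusted p = 0.0782). In Th1 against naive cells Egr2 rose by 0.94 ± 0.15 (adjusted p = 0.00111), Nfatc3 rose by 0.66 ± 0.16 (adjusted p = 0.00818, and 0.0921 without the arrays numbered 1) and Nfkb2 fell by 0.62 (SE 0.13, adjusted p = 0.00428). The factors were thus called in both directions in each comparison.

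The genes that flank Tnf, Lta and Ltb on chromosome 17 were followed as well. Of 5 tested, beside 54.1%, 53.9% and 15.8% of all genes in the 3 comparisons in the order given, 1 was called higher and 1 lower in Th17 against naive cells, 1 higher and 1 lower in Th1 against naive cells, and 1 higher and 0 lower in Th17 against Th1 cells. Aif1 rose by 1.47 ± 0.33 in Th17 against naive cells (adjusted p = 0.00572) and by 1.53 ± 0.33 in Th17 against Th1 cells (adjusted p = 0.0166), with 2 of 3 naive and 2 of 3 Th1 arrays above background, and the second call ended without Th17 replicate 2 or 3 (adjusted p = 0.0538 and 0.0504) and within slide 2 (1.18, adjusted p = 0.142). With slide as a fixed block both ended, at 0.56 in Th17 against naive cells (adjusted p = 0.493) and 1.18 in Th17 against Th1 cells (adjusted p = 0.10). Lst1 was at -0.44 ± 0.13 in Th17 against naive cells (adjusted p = 0.0229). Nfkbil1 was at -0.40 ± 0.14 (adjusted p = 0.0385) and Atp6v1g2 at 0.53 ± 0.18 (adjusted p = 0.0373) in Th1 against naive cells. Each of these 3 calls ended under several other settings, and with the mean of all kept probes Lst1 turned to a call in the other direction (0.33, adjusted p = 0.0471).

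**Figure D5:**
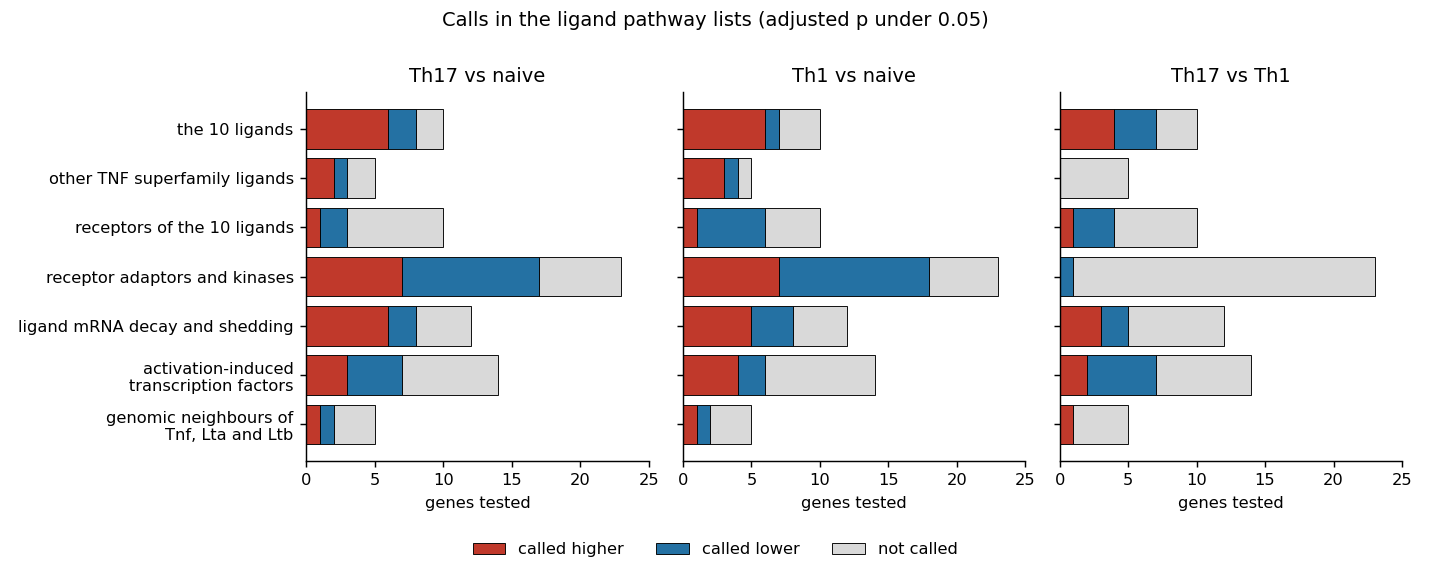
Number of genes called higher, called lower or not called (adjusted p under 0.05) among the 10 ligands and the genes tested of 6 pathway lists, in the 3 comparisons. Of the 23 adaptors and kinases 17 were called in Th17 vs naive and 1 in Th17 vs Th1, against 8 and 7 of the 10 ligands.

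For each ligand, the genes with the most similar course over the 9 arrays were found by the root mean square distance between levels centred on their own means, among 13063 other genes with a symbol. For Tnfsf8 these were Slc33a1 and Rinl, at distances of 0.10 and 0.13 log2 units, and for Cd40lg Rabgef1 (0.07) and Rap2b (0.13). Tnf was nearest to Mllt11 (0.14) and Stc2 (0.18), Fasl to Ddx43 (0.14) and Rexo5 (0.16), and Tnfsf10 to A230072C01Rik (0.24) and Ebi3 (0.35). Osbpl3 (0.28) and Ttbk1 (0.33) were nearest to Tnfsf11, and Asns (0.31) and Mpzl2 (0.32) to Tnfsf14. Tnfsf4 was nearest to Car2 (0.40) and Efnb2 (0.41), Ltb to Ptk2 (0.42) and Myb (0.53), and Lta to Serpine2 (0.44) and Pde4a (0.44). Some of these genes were dim in places. The lowest level among probes well above background lay between -5.53 and -4.83, depending on the array. Means within or below that range were those of Serpine2 in Th17 (-5.37) and Th1 cells (-5.43) and Ptk2 in Th1 cells (-5.10). In naive cells they were those of A230072C01Rik (-6.69) and Ttbk1 (-5.67). No ligand was among the 2 nearest genes of another. Between ligands, Tnf and Cd40lg (0.44) and Lta and Ltb (0.62) were the closest pairs.

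Markers of other cells were looked up because some of them also express these ligands. Cd8a, which defines CD8 T cells, was above background on 0 of 9 arrays, while Cd8b1 was above on all 9 and lower in Th17 (-3.41 ± 0.16, adjusted p = 1.82e-06) and in Th1 against naive cells (-3.31 ± 0.16, adjusted p = 1.89e-06). Among B cell markers Ms4a1 was above background on 0 of 9 arrays, and Cd79a on 2 of 3 arrays of each population, with no call. Of the NK cell markers Ncr1 and Klrb1c were above background on 0 of 9 arrays, whereas Eomes was above on 1 of 3 Th17, 3 of 3 Th1 and 3 of 3 naive arrays and was lower in Th17 than in naive (-5.70 ± 0.64, adjusted p = 0.000144) and in Th1 cells (-4.50 ± 0.64, adjusted p = 0.0024). Of the 7 myeloid markers, 4 in Th17, 3 in Th1 and 4 in naive cells passed background on every array of their population, and their summed linear level, in units of the array's 75th percentile, was 20.2 to 30.8 in Th17, 25.8 to 31.9 in Th1 and 17 to 17.2 in naive cells. Itgam and Csf1r gave most of that sum and moved in opposite directions against naive cells. Itgam was called higher in Th17 (0.80 ± 0.17, adjusted p = 0.00461) and Th1 cells (1.07 ± 0.17, adjusted p = 0.00106). Csf1r was called lower in Th17 (-0.77 ± 0.14, adjusted p = 0.00225) and Th1 cells (-0.72 ± 0.14, adjusted p = 0.00317). Adgre1 had no call, Fcgr3 was above background on 0 arrays, and Tyrobp on 1 Th17 and 1 naive array. Cd14, above background on all 9 arrays, was 8.33-fold higher in Th17 than in naive cells (adjusted p = 0.000187) and 5.55-fold higher than in Th1 cells (adjusted p = 0.00274), and Lyz2 was above background on 2 Th17 arrays and on 0 others. Of the 5 dendritic cell markers this sum was 180 to 214.8 in Th17, 176.8 to 200.6 in Th1 and 161.5 to 168.6 in naive cells. Siglech gave most of it, with a level near 7.6 in Th17, 7.6 in Th1 and 7.4 in naive cells. Zbtb46, above background on all 9 arrays, went the other way. It was called lower in Th17 against naive cells (-0.64 ± 0.18, adjusted p = 0.0152). In Th1 against naive cells it was at -0.42 ± 0.18 and did not pass (adjusted p = 0.0754). Flt3 was above background on 0 arrays and Itgax on 1 naive array. Xcr1 was above background on the 3 Th1 arrays and on 0 others, and against naive cells was at least 2.49-fold higher in Th1 cells (adjusted p = 0.00024) and at least 3.02-fold lower in Th17 than in Th1 cells (adjusted p = 0.00151). The 3 gamma-delta T cell markers on the array did not move together. Cd163l1 was above background on the 3 Th17 arrays and on 0 others, and Blk on 0 arrays. Sox13 was above background on all 9 arrays. It was called lower in Th17 (-0.53 ± 0.13, adjusted p = 0.00952) and in Th1 against naive cells (-0.58 ± 0.13, adjusted p = 0.00652). The 5 markers of naive T cells summed to 52.1 to 70 in Th17, 70.1 to 89.9 in Th1 and 232 to 276.8 in naive cells. Whether cells of these kinds contribute to the ligand levels was not tested.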

How the data were processed

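RNA of 9 sorted samples, 3 each of Th17, Th1 and naive cells, was measured on 1-colour Agilent mouse arrays (design 026655). The deposited array files hold each spot's processed intensity, background-subtracted by Agilent Feature Extraction, version 10.7.3.1 per the file headers and 10.5 per the submitters' processing notes. The authors' deposited table holds log2 values that equal the log2 processed intensity up to a constant per probe and per array. Its baseline per probe is not given in the sources used here, and its column medians lie between -0.10 and 0.28.

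Control spots and outlier spots were left out, the 75th percentile of each array was subtracted from the log2 intensities, and repeated spots were averaged. A probe was kept if it was well above background on at least 3 of 9 arrays, with at least 2 values per group, and the brightest probe stood for its gene. This left 19133 genes, 13116 with a symbol. One limma model (version 3.58.1, R 4.3.3) covered the 3 groups, with adjusted p under 0.05 as the threshold. The procedure was tested on simulated data with independent noise on each array. Slides and replicate numbers were not simulated, so that test does not bear on their part in the p-values. The number of arrays limits the precision.

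By rule, all 10 ligands were named, up to 4 called genes of each pathway list per comparison by smallest p (up to 2 where none was called), the 2 nearest genes of each ligand, and Ifng, Il17a, Cd4 and Cd3e. A list gene named by this rule in 1 comparison can be called in another as well. Members and lists were chosen with earlier results of these data known. Ltbr, Tnfrsf8, Tnfrsf11b, Tnfsf18 and Eda did not pass the filter, and Tnfsf13 and Ncr3 had no matched probe.

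Alternatives were normexp background correction (offset 50), quantile normalization, scaling to the probes detected on every array, the authors' values, other filters and probe rules, slide as a fixed or random block or taken alone, the replicate number as a block, only the groups compared, and each array left out. Leaving out the arrays numbered 1, and normexp without spots of outlying local background, were chosen after seeing the data.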

Additional observations from a re-analysis of the deposited data

Results flagged for a closer look

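Tnfsf4 and Fasl were called in opposite directions against naive cells, lower in Th17 cells and higher in Th1 cells, and the difference between Th17 and Th1 cells was itself tested with limma over the 9 arrays. Tnfsf4 was -1.87 in Th17 against naive cells and 1.30 in Th1 against naive cells, and its difference in Th17 against Th1 cells was -3.17 (adjusted p = 0.000222), with 3 of 3 Th17 arrays below all Th1 arrays. Fasl was -0.67 in Th17 against naive cells and 0.74 in Th1 against naive cells, and its difference in Th17 against Th1 cells was -1.40 (adjusted p = 0.00062), again with 3 of 3 Th17 arrays below all Th1 arrays. Within slide 2, which held 2 arrays of each cytokine-secreting population, the differences were -2.70 for Tnfsf4 (adjusted p = 0.0114) and -1.28 for Fasl (adjusted p = 0.0208). With slide as a fixed block the falls in Th17 against naive cells were not called, at -0.99 for Tnfsf4 (adjusted p = 0.0753) and -0.58 for Fasl (adjusted p = 0.118), so the opposite calls were not kept in that setting.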

How the results depend on the processing

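The counts of ligands called kept within 1.5 times their reported value in most settings. Leaving out 1 array at a time gave 7 to 10 ligands for Th17 against naive cells (8 reported), 7 in each case for Th1 against naive cells (7 reported) and 5 to 7 for Th17 against Th1 cells (7 reported). Normexp background correction gave 4 for Th17 against naive cells and 1 for Th17 against Th1 cells. Under it the range of log2 values, without the extreme percentiles, was 5.55 on Th1 replicate 2 and 10.1 to 11.4 on the other arrays, and the brightest local background was 168530 on that array, against 48 to 361 on the others. Without spots of outlying local background the counts were 9, 7 and 7 in the order above. Slide as a fixed block and the arrays of slide 2 alone each gave 4 for Th17 against Th1 cells. With the replicate block the counts were 10, 8 and 8. The calls it added were Lta in Th17 (adjusted p = 0.018) and Th1 against naive cells (adjusted p = 0.0148), and Ltb in Th17 against naive (adjusted p = 0.00587) and against Th1 cells (adjusted p = 0.0486). Whether the replicate numbers pair the samples is not settled. Deviations correlated at -0.007 to 0.175 between arrays of the same number, over 0.1 in 3 of 9 pairs. Between different numbers they correlated at -0.197 to 0.065, over 0.1 in 0 of 18 pairs.

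Signs turned for values that were not called, and for Tnf in Th17 against naive cells (0.67 as reported), which was -0.029 with slide as a fixed block (adjusted p = 0.964). Cd40lg in Th1 against naive cells turned to 0.022 with normexp, 0.011 without spots of outlying background, 0.129 with arrays scaled to the probes detected on every array, 0.286 with slide as a fixed block and within slide 1, and 0.025 with slide as a random block, and lay between -0.17 and 0.0597 when 1 array was left out. Lta in Th17 against Th1 cells turned to -0.10 without the arrays numbered 1, -0.00027 under quantile normalization, -0.77 with slide as a fixed block and within slide 2, and -0.086 with slide as a random block, and lay between -0.58 and 0.54 when 1 array was left out. Tnf in Th1 against naive cells turned to 0.016 under quantile normalization and lay between -0.43 and 0.0203 when 1 array was left out. With slide as a fixed block, Th1 replicate 1 is the only Th1 array on the slide of the naive arrays. Changes against naive cells in that fit rest on this array. The cause of the turns in sign was not tested. Over the settings run, Tnfsf11 and Tnfsf14 against naive cells kept direction and call in each, with Tnfsf11 between 5.55 and 6.16 in Th17 and between 4.34 and 5.52 in Th1 cells.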
